A study of Homo sapiens with 38 samples.

Results

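The transcriptome of RKO cells after 4 days in NCD38 was compared with that of RKO cells after 4 days in the solvent dimethylsulfoxide (DMSO). RKO is an established human colorectal cancer cell line. Each condition was 1 RNA-seq library, so neither culture had a replicate and no test was possible. Of 25594 entries in the expression table, the 10865 that were expressed are described here. Their names occurred once and their mean over the 8 RNA libraries of the series was at least 1 FPKM, a count of fragments scaled to transcript length and to the mapped fragments of the library. NCD38 was given at 2 µM in medium with 0.1% DMSO, as the sample labels state, while the study's methods write the day 4 dose in mM. The control received 0.1% DMSO alone, and both came from the same line with no other alteration. The other day 4 libraries were of cells given NCD38 joined to a DNA-binding polyamide, NCD38-β2P4 or NCD38-β2PIPP. The same 4 treatments were sequenced again on day 30, and all of these libraries are used here only to place the NCD38 values.

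NCD38 inhibits lysine-specific demethylase-1 (LSD1, encoded by KDM1A), which removes methyl groups from mono- and dimethylated lysine 4 of histone H3 by a reaction that uses flavin adenine dinucleotide. LSD1 acts with the CoREST scaffold proteins and the histone deacetylases HDAC1 and HDAC2 at silent genes, among them neuronal genes held down by the repressor REST. NCD38 belongs to the phenylcyclopropylamine inhibitors, which inactivate the enzyme by forming a covalent bond with its cofactor. The comparison asks which transcripts had changed after a short exposure.

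The depth, estimated from the FPKM of single fragments, was 18800000 fragments in the DMSO library and 14300000 in the NCD38 library. Over the 8 libraries it ran from 13500000 fragments to 24800000 fragments, and the counting half-widths given with some genes rest on these estimates. The median FPKM of the expressed genes was 7.64 in DMSO and 5.56 in NCD38, and the NCD38 library had the lowest value for 6542 of the 10865 genes among the 4 day 4 libraries (60.2%). Ratios of NCD38 to DMSO were therefore taken as log2 of FPKM + 1 and centred on their median, which was -0.21 before centring. Adding 1 understates the change of genes with low FPKM. The colorectal epithelial markers KRT8, KRT18 and CDX2 were above 1 FPKM in all 8 libraries. On day 4 EPCAM was at 0.0922 FPKM in NCD38, 0.28 in DMSO, 0.815 in NCD38-β2P4 and 0.867 in NCD38-β2PIPP. On day 30 it was at 3.94 to 6.53. CDH1, KRT19, VIL1 and LGR5 were below 1 FPKM in all 8 libraries. The markers of blood, fibroblasts and endothelium summed to at most 0.03 FPKM in any library.

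On the centred scale, 120 genes were at least 2-fold higher in NCD38 (1.1% of 10865) and 174 were at least 2-fold lower (1.6%). Past 1.5-fold, 874 genes were higher (8.04%) and 1201 were lower (11.1%). Without centring the 2-fold counts were 95 higher and 493 lower, and with both libraries scaled to the same FPKM sum they were 91 and 599. A large part of the 2-fold genes were short or poorly covered entries. Only 26 of the higher and 89 of the lower ones were protein-coding genes whose matched transcript had 500 nt or more, of 9604 such genes. DMSO was listed at 0 for 34 of the higher genes, and NCD38 was listed at 0 for 61 of the lower ones. Where such an entry was near 0 in the other libraries too, it passed the limit on mean FPKM only through its high library.

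**Figure D1:**
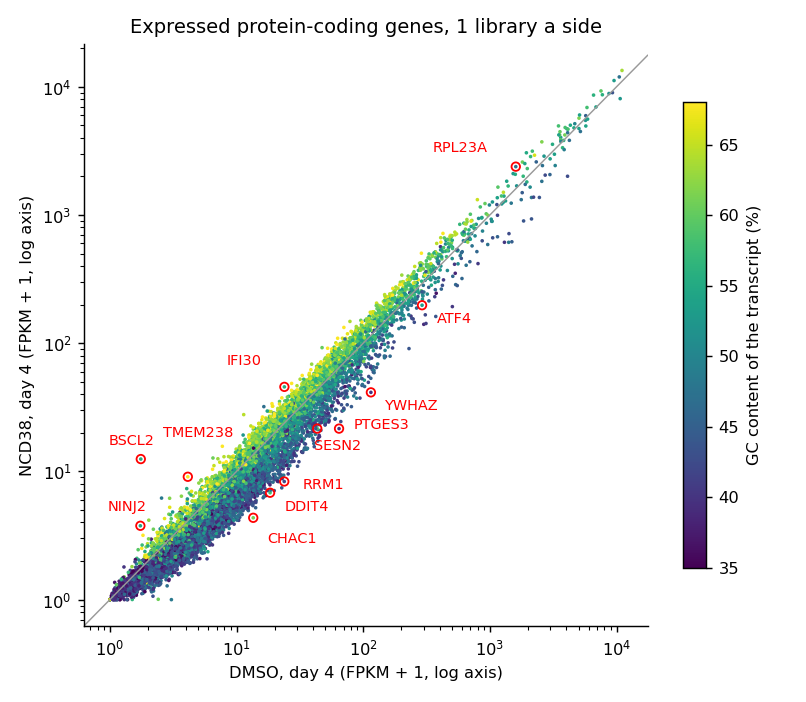
FPKM + 1 in the NCD38 library against the DMSO library on day 4, both log axes, for expressed protein-coding genes with transcripts of 500 nt or more, coloured by the GC content of the transcript. The grey line marks equal values: GC-rich genes (yellow) lie above it and genes of medium to low GC content (blue) below it, with CHAC1 and DDIT4 low for GC-rich genes and BSCL2 at 0.755 in DMSO and 11.5 in NCD38.

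The ratio followed the base composition of the transcript. GC content was computed from the canonical GENCODE transcript of 10104 expressed genes. Across these genes the Spearman correlation of GC content with the centred log2 ratio was 0.59, which is a description, since all genes share the same 2 libraries. The genes were divided into 5 equal groups by GC content. In the group with the highest GC content (59.1% to 87.9%) the median centred log2 ratio was 0.45. It was 0.23 in the next group, -0.17 in the middle group and -0.38 in the group from 41.4% to 46.5%. In the lowest group it returned to -0.14. Those genes also had the lowest levels, with a median FPKM of 1.22 in DMSO and 0.746 in NCD38 on day 4. In the day 30 libraries it was 5.91 to 7.11. With 0.1 in place of 1 added to the FPKM, the median day 4 ratio of this group was -0.35. On day 30 the medians of the groups ran from 0.09 at the lowest GC content to -0.06 at the highest, and the Spearman correlation was -0.18. In the highest group the median FPKM was 20.2 in DMSO, 23.5 in NCD38, 19.8 in NCD38-β2P4 and 18.7 in NCD38-β2PIPP. In the lowest group it was 2.0 in NCD38-β2P4 and 3.28 in NCD38-β2PIPP, so NCD38 was the lowest of the 4 there and the highest at high GC content. Transcript length ran with the ratio as well, with a Spearman correlation of -0.28, or -0.15 once GC content had been subtracted. With 1 library a side, a trend of the treatment and a trend of the library cannot be told apart.

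**Figure D2:**
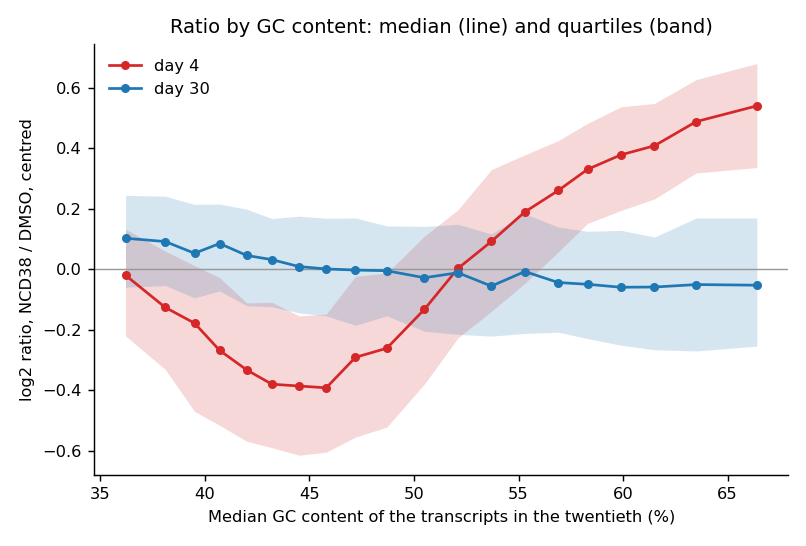
Median (line) and quartiles (band) of the centred log2 ratio of NCD38 to DMSO in 20 equal groups of genes by transcript GC content, on day 4 (red) and day 30 (blue). The day 4 medians fall to -0.39 at a GC content of 45.8% and climb to 0.54 at 66.4%, whereas the day 30 medians stay between -0.06 and 0.10.

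The first 150 coding bases of PTGES3 and SELT, which were among the lower genes with low-GC transcripts, and of TMEM238, among the higher genes with GC-rich transcripts, are given 5′ to 3′ with G and C in capitals. They are of the canonical GENCODE transcripts on GRCh37.
PTGES3: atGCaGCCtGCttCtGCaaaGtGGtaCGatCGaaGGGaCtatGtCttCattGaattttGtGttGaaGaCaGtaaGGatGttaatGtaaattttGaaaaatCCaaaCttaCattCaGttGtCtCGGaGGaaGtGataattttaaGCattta
SELT: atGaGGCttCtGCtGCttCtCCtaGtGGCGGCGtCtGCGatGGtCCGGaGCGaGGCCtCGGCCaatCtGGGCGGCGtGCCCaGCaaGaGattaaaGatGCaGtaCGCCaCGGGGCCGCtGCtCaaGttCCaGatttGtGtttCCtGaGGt
TMEM238: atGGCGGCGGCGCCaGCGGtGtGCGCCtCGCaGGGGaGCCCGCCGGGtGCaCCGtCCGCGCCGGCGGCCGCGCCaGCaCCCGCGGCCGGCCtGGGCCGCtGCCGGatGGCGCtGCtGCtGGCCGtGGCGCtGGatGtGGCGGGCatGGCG
G or C made up 35.3% of the stretch of PTGES3, on the minus strand of chr12:57057125-57082192, and 82.0% of that of TMEM238, on the minus strand of chr19:55890612-55895660. SELT, on the plus strand of chr3:150320662-150348223, had 60.0% in this stretch but 34.9% over its whole transcript. The FPKM of PTGES3 was 63.4 in DMSO and 20.6 in NCD38, with 70.3 in NCD38-β2P4 and 78.3 in NCD38-β2PIPP. TMEM238 was at 3.12 FPKM in DMSO and 8.08 in NCD38, with 4.44 and 3.30 in the conjugates. The first gene was therefore lowest and the last highest in the NCD38 library among the day 4 libraries.

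To describe the genes beside this trend, the median of 20 equal bins of GC content was subtracted from each ratio. This left 69 genes at least 2-fold higher (0.683% of 10104) and 63 at least 2-fold lower (0.624%), and past 1.5-fold 264 higher (2.61%) and 487 lower (4.82%). These shares are of all matched entries, 500 of which are not protein-coding or have transcripts under 500 nt. They are therefore not a like-for-like share for sets of protein-coding genes. Of protein-coding genes with transcripts of 500 nt or more, 5 equal groups by length had 1920 or 1921 genes each. In these groups 58 to 129 genes were at least 1.5-fold lower and 20 to 60 higher after GC subtraction. Among protein-coding genes with transcripts of 500 nt or more, 8 were at least 2-fold higher and 14 at least 2-fold lower. The NCD38 library on day 4 was below all 7 other RNA libraries for 13 of the 14 and above all of them for 5 of the 8. By construction these counts come from the contrast itself and carry no estimate of error.

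The 14 lower genes were led by stress-response genes. CHAC1, which encodes an enzyme that breaks down glutathione (plus strand, chr15:41245160-41248710, GRCh37), was at 12.5 FPKM in DMSO, 3.35 in NCD38, 7.87 in NCD38-β2P4 and 4.79 in NCD38-β2PIPP, and at 17.4 to 23.9 in the day 30 libraries. DMSO was thus the highest and NCD38 the lowest of the day 4 libraries. Its centred log2 ratio was -1.43 and its GC-subtracted log2 ratio -1.84. Fragment counting alone gave a 95% half-width of 0.39 on the log2 scale, which leaves out any spread between cultures. DDIT4, an inhibitor of the growth kinase complex mTORC1 (plus strand, chr10:74033678-74035794), was at 17.4 FPKM in DMSO, 5.82 in NCD38, 10.6 in NCD38-β2P4 and 9.67 in NCD38-β2PIPP, and at 11.2 to 12.6 on day 30. Its GC-subtracted log2 ratio was -1.55 (counting half-width 0.28). SESN2, another inhibitor of mTORC1 (plus strand, chr1:28586029-28609002), was at 42.3, 20.6, 33.1 and 24.5 FPKM in the same order and at 22.7 to 24.0 on day 30, with a GC-subtracted log2 ratio of -1.18 (counting half-width 0.11). For CHAC1, DDIT4 and SESN2 all 3 treated day 4 libraries lay below the DMSO library.

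The other lower genes had the NCD38 library alone at the bottom. YWHAZ, a 14-3-3 adaptor protein on chromosome 8, was at 113.9 FPKM in DMSO and 40.3 in NCD38, against 154.1 and 184.7 in NCD38-β2P4 and NCD38-β2PIPP, with a GC-subtracted log2 ratio of -1.09. PTGES3, a co-chaperone of HSP90, had a ratio of -1.10 on the same scale, SELT, a selenoprotein of the endoplasmic reticulum, -1.16, and C17orf58 -1.31. TRIO, a guanine nucleotide exchange factor with a transcript of 11460 nt, was at 4.60 FPKM in DMSO, 1.48 in NCD38, 6.16 in NCD38-β2P4 and 8.67 in NCD38-β2PIPP, with a ratio of -1.06. For each of these genes both conjugate libraries were above the DMSO library. PIGY (-1.02), of glycosylphosphatidylinositol anchor synthesis, and SDHD (-1.01), a membrane subunit of succinate dehydrogenase, were also past 2-fold, as were DYNC1H1 and SPTBN1, which are named here only to complete the count. Of the 277 protein-coding genes with transcripts of at least 10000 nt, 25 were at least 1.5-fold lower and 4 higher after GC subtraction, against 4.82% and 2.61% of all matched genes. In the longest of the 5 groups of protein-coding genes by length, from 5408 nt, 129 of 1921 were lower and 27 higher. RRM1, the large subunit of ribonucleotide reductase, was among the 6 lowest centred ratios (22.8 FPKM in DMSO, 7.34 in NCD38; -1.30) and stood at -0.92 after GC subtraction.

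The remaining lower genes were PLA2G4B and MUTED-TXNDC5, which overlap other entries. PLA2G4B, a phospholipase gene, was at 1.41 FPKM in DMSO and 0.00645 in NCD38, while the overlapping read-through entry JMJD7-PLA2G4B was at 0.0141 in DMSO and 1.85 in NCD38. MUTED-TXNDC5 was at 2.06 FPKM in DMSO and listed at 0 in NCD38, while TXNDC5 was at 146 and 96.9. Overlapping entries share fragments that the assembly program must divide between them, so the ratio of either entry alone is uncertain.

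The same limit touched 4 of the 8 higher genes. BSCL2, which encodes the lipid-droplet protein seipin (minus strand, chr11:62456761-62477317), was at 0.755 FPKM in DMSO, 11.5 in NCD38, 1.01 in NCD38-β2P4 and 1.06 in NCD38-β2PIPP, and at 5.67 to 14.1 on day 30. Its GC-subtracted log2 ratio was 2.85. The overlapping entry HNRNPUL2-BSCL2 was at 21.25 FPKM in DMSO, 14.97 in NCD38, 23.9 in NCD38-β2P4 and 24.1 in NCD38-β2PIPP, so it was lowest where BSCL2 was highest. C15orf63 rose from 15.4 to 31.0 FPKM while SERF2-C15ORF63 went from 22.4 to 18.1. C17orf61-PLSCR3 and TMEM189-UBE2V1 are themselves read-through entries. Their FPKM was 10.4 and 1.56 in DMSO against 26.7 and 5.19 in NCD38.

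Overlapping entries were not examined for the other higher genes. NINJ2, an adhesion protein, was at 0.741 FPKM in DMSO, 2.77 in NCD38, 1.18 in NCD38-β2P4 and 1.15 in NCD38-β2PIPP, and at 0.431 to 0.937 on day 30, with a GC-subtracted log2 ratio of 1.23 and a counting half-width of 1.04. NCD38 was the highest of the 8 libraries, on an estimated 28.4 fragments. PSENEN, a subunit of gamma-secretase, was at 70.7 FPKM in DMSO and 106.7 in NCD38, and its ratio was 0.80 centred and 1.09 after GC subtraction. RPL23A, a protein of the large ribosomal subunit, was at 1598 and 2378 FPKM, with ratios of 0.78 and 1.07. C10orf11 was at 8.58 and 12.01 FPKM, with ratios of 0.65 and 1.04, so these 3 passed 2-fold only once the trend was subtracted. IFI30, a lysosomal thiol reductase of antigen processing, was at 22.9 FPKM in DMSO, 44.6 in NCD38, 23.8 in NCD38-β2P4 and 21.4 in NCD38-β2PIPP, with a centred ratio of 1.15 and 0.95 after subtraction. NCD38 was above every other library for IFI30, whose day 30 values ran from 15.2 to 25.3 FPKM.

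Entries that are not protein-coding or have transcripts under 500 nt made up 61 of the 69 higher and 49 of the 63 lower genes. All 17 entries of 5S ribosomal RNA, the small RNA of the large ribosomal subunit, were at least 2-fold higher. Apart from RN5S9, at 13.01 FPKM in DMSO and 34.29 in NCD38, they are near-identical copies of 119 nt. Fragments cannot be assigned to 1 of these copies, so the copies amount to a single measurement. Leaving out RN5S9, the 16 others had a median of 397.8 FPKM in DMSO and 1740 in NCD38, with 2453 in NCD38-β2P4 and 604 in NCD38-β2PIPP. On day 30 the medians were between 75.1 and 97.6 FPKM. Their centred log2 ratios on day 4 ran from 2.22 to 2.41, and the DMSO library was the lowest of the 4. The libraries were made with a kit that selects polyadenylated RNA, which 5S RNA is not. Without these entries 103 genes were at least 2-fold higher on the centred scale and 52 after GC subtraction. Of 95 small nucleolar RNAs, which guide RNA modification, 22 were higher and 21 lower on the centred scale, and 49 were listed at 0 in DMSO and 54 in NCD38. Of 79 microRNA entries 13 were higher and 23 lower. MIR4523 was listed at 0 in DMSO and at 297.9 FPKM in NCD38, and SNORD34 at 312.6 in DMSO and 0 in NCD38. Both were listed at 0 in each of the 6 other libraries, so each passed the limit on mean FPKM through 1 library alone. Its extreme ratio followed from that. For entries under 100 nt such values can stand for very few fragments.

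The target of NCD38 and its partners kept close to the other genes of their composition. KDM1A was at 56.6 FPKM in DMSO, 38.0 in NCD38, 69.9 in NCD38-β2P4 and 72.1 in NCD38-β2PIPP, with a centred log2 ratio of -0.35 and -0.22 after GC subtraction. RCOR1, the CoREST scaffold, was at 4.31, 1.73, 6.46 and 9.52 FPKM in that order, with -0.75 and -0.36. NCD38 was the lowest of the day 4 libraries for both. RCOR2 and RCOR3, its paralogs, had GC-subtracted ratios of 0.10 and -0.10, HDAC1 0.11 and HDAC2 -0.02. Over the 18 expressed genes of the LSD1 and CoREST list the median was -0.15 centred and -0.003 after subtraction. After subtraction 1 gene was at least 1.5-fold lower (KIAA0182, at -0.60) and 0 higher, against 4.82% and 2.61% of all matched genes. NCD38 inhibits the enzyme and not its synthesis, so transcript levels are no check of inhibition.

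Genes known to be held down by LSD1 were mostly below the expression limit. Of 34 listed REST target genes 7 were expressed, and 0 were past 1.5-fold in either direction after GC subtraction (median 0.10). On the centred scale their median was 0.32, with 6 of 7 above 0 and 3 at least 1.5-fold higher, against 8.04% of all genes. NCD38 was the highest of the day 4 libraries for 4 of 7, against 25.9% of all genes. The median GC content of these 7 was 62.2%. TUBB3, a neuronal tubulin, was at 52.5 FPKM in DMSO and 72.2 in NCD38 (56.1 and 44.2 in the conjugates), with 0.66 centred and 0.25 after subtraction. CPLX1, a regulator of synaptic vesicle release, was at 4.87 and 7.90 FPKM, with 0.81 and 0.27. Of 17 myeloid genes that LSD1 inhibitors raise in leukemia cells, 3 were expressed, and 0 were past 1.5-fold. ITGAX, an integrin of myeloid cells, was at 2.63 FPKM in DMSO and 1.75 in NCD38, and CEBPA, a myeloid transcription factor, at 12.9 and 16.9.

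ATF4 is the transcription factor that cells make when amino acids run short or protein folding fails, and its targets import and synthesize amino acids, charge transfer RNA and restrain growth. Of 31 expressed genes of this list, 10 were at least 1.5-fold lower and 0 higher after GC subtraction, against 4.82% and 2.61% of all matched genes. The median was -0.31, with 8 of 31 above 0, while 49.9% of all matched genes were above 0. On the centred scale the median was -0.27, with 11 lower and 1 higher, against 11.1% and 8.04% of all genes. NCD38 was the lowest of the day 4 libraries for 19 of the 31 (61.3%), a share close to the 60.2% of all genes. Besides CHAC1, DDIT4 and SESN2, the lower genes were SLC7A1 and SLC38A2, amino acid transporters, MTHFD2, of mitochondrial folate metabolism, DDIT3, which encodes the stress factor CHOP, TRIB3, a pseudokinase, ATF3, a transcription factor, and XPOT, which exports transfer RNA. SLC38A2 was at 15.3 FPKM in DMSO, 6.92 in NCD38, 19.7 in NCD38-β2P4 and 32.6 in NCD38-β2PIPP (GC-subtracted ratio -0.71). DDIT3 was at 24.3, 11.3, 27.2 and 36.7 FPKM (-0.70) and MTHFD2 at 32.3, 13.1, 42.9 and 49.8 (-0.77). TRIB3 was at 99.8, 71.1, 77.5 and 60.6 FPKM (-0.68). NCD38 was the lowest of the day 4 libraries for the first 3, whereas NCD38-β2PIPP was lowest for TRIB3. SLC7A1, at 29.2 FPKM in DMSO and 14.1 in NCD38, had a ratio of -0.79, which became -0.50 when length was also subtracted. ATF3, at 2.10 FPKM in DMSO and 0.532 in NCD38, had a counting half-width of 0.85 that exceeded its ratio of -0.67. ATF4 itself was at 290.2 FPKM in DMSO, 196.6 in NCD38, 278.7 in NCD38-β2P4 and 281.2 in NCD38-β2PIPP, with a ratio of -0.44.

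Not all ATF4 targets were low. ASNS, which makes asparagine, was at 70.7 FPKM in DMSO, 69.1 in NCD38, 63.1 in NCD38-β2P4 and 71.4 in NCD38-β2PIPP. Its GC-subtracted ratio was 0.56. PHGDH, the first enzyme of serine synthesis, was at 154.8 FPKM in DMSO and 214.9 in NCD38 (0.35), and NUPR1, a small stress-induced nuclear protein, at 1.54 and 1.71 (0.43). On the centred scale ASNS was at 0.18. On day 30 the ratios of these 3 genes were -0.90, -0.51 and -1.67, so they lay on the other side of 0, while CHAC1 was at -0.26 and DDIT4 at 0.12. Over the whole list the day 30 median was -0.23, the same side as on day 4. On day 30, 0 genes were past 1.5-fold upwards and 4 downwards, against 2.74% and 3.04% of all matched genes.

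**Figure D3:**
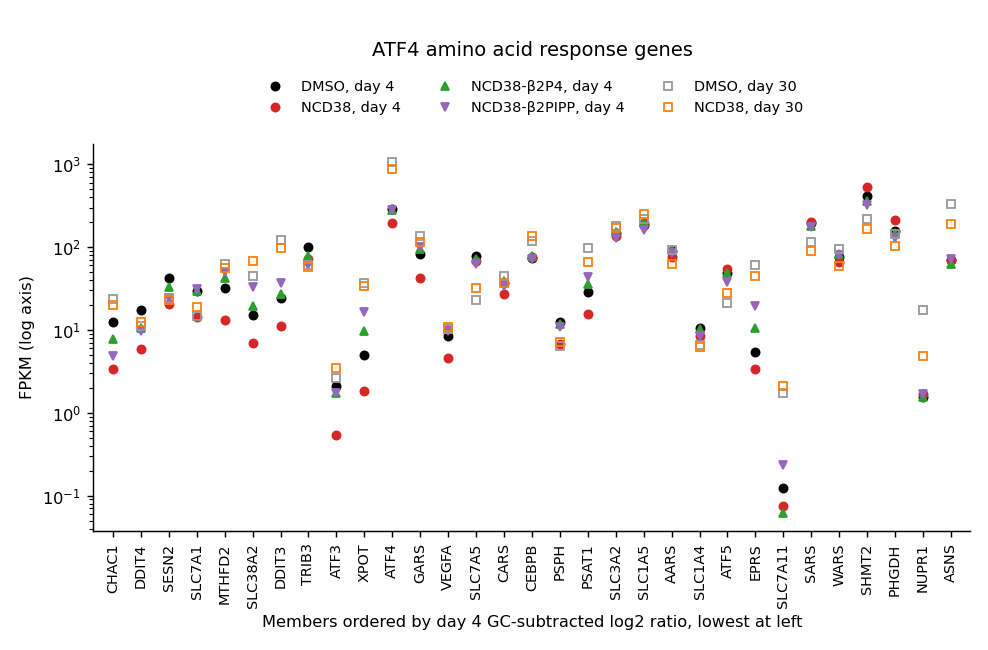
FPKM (log axis) of the 31 expressed genes of the ATF4 amino acid response in the 4 day 4 libraries (filled) and in the DMSO and NCD38 libraries of day 30 (open), ordered by the day 4 GC-subtracted log2 ratio. NCD38 on day 4 (red) is lowest of the 6 for CHAC1, DDIT4 and SESN2 at the left and lies at or above DMSO on day 4 for PHGDH and NUPR1 at the right.

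The promoters of CHAC1, the lowest member, and of ASNS, the highest, both held the 8-base composite element to which ATF4 is known to bind, TGATGNAA. The 250 bases before the start and 50 after it are given 5′ to 3′ on the strand of the gene, from RefSeq on GRCh38.p14, with the element in capitals.
CHAC1: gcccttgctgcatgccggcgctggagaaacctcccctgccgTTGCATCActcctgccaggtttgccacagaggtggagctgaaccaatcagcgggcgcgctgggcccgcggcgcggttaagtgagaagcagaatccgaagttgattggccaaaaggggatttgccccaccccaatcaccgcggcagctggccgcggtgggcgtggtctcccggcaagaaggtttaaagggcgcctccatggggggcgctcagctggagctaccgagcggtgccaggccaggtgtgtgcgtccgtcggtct
ASNS: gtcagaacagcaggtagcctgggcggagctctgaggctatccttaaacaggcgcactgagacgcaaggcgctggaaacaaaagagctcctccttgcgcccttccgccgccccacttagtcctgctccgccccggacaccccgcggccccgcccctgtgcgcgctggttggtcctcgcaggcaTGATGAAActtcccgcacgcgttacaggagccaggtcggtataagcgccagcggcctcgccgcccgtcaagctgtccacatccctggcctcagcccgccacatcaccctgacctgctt
The element of CHAC1 (chr15:40953221-40953520, plus strand) began 209 bases before the start and read on the opposite strand. That of ASNS (chr7:97872359-97872658, minus strand) began 68 bases before the start. Counting both strands, 3 of 10 lower members and 4 of 16 other members with a promoter sequence held TGATGNAA, against 3.67% of 27305 RefSeq promoters. The cyclic AMP response element TGACGTCA was in 0 of 10 and 0 of 16, against 1.98% of all. A match is a description of the letters and not evidence of binding.

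Immediate early genes, which signalling through growth factor receptors turns on within minutes, had few members above 0. After GC subtraction 7 of 31 expressed genes were at least 1.5-fold lower and 0 higher, with a median of -0.20 and 7 above 0. Of all matched genes 4.82% were lower, 2.61% were higher and 49.9% were above 0. With 0.1 added to the FPKM the median was -0.32. EGR1, a zinc finger transcription factor, was at 95.1 FPKM in DMSO, 58.9 in NCD38, 106.5 in NCD38-β2P4 and 99.95 in NCD38-β2PIPP (ratio -0.66). DUSP6, a phosphatase of the kinase ERK, was at 20.1, 7.77, 33.1 and 39.8 FPKM (-0.67), and EGR3 at 4.44, 1.91, 6.21 and 6.28 (-0.79). NCD38 was the lowest of the day 4 libraries for all 3. ATF3, which is also on the ATF4 list, CTGF, KLF10 and SPRED2 were the other lower genes. The counting half-width of ATF3, 0.85, exceeded its ratio of -0.67. CTGF was at 1.24 FPKM in DMSO and 0.261 in NCD38, with a counting half-width of 1.08 that exceeded its ratio of -0.62. FOSL1 and PHLDA1 were at 0.17 and 0.20. On day 30 the median of the list was 0.27, with 4 genes past 1.5-fold upwards and 0 downwards, against 2.74% and 3.04% of all matched genes. EGR1 was at 18.8 FPKM in DMSO and 40.8 in NCD38 on that day (1.02).

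Genes for splicing had their lowest median on the centred scale. Of 36 expressed SR and hnRNP splicing proteins, the NCD38 library was the lowest of the 4 on day 4 for 35 (97.2%, against 60.2% of all genes). Their median was -0.44 centred, with 12 at least 1.5-fold lower, against 11.1% of all genes. After GC subtraction it was -0.18, with 5 lower and 0 higher, against 4.82% and 2.61% of all matched genes. The GC-subtracted median was -0.06 with 0.1 added to the FPKM and -0.31 with 5 added. HNRNPM was at 101.0 FPKM in DMSO, 50.5 in NCD38, 120.7 in NCD38-β2P4 and 140.5 in NCD38-β2PIPP (ratio -0.87). SFPQ was at 68.4, 28.9, 98.5 and 108.9 FPKM (-0.75), and SRSF1, a regulator of exon choice, at 14.96, 6.60, 23.1 and 29.7 (-0.74). In all 3 the order of the libraries was NCD38, DMSO, NCD38-β2P4 and NCD38-β2PIPP from lowest to highest. The median GC content of the list was 42.6%. Over all genes from 41.4% to 46.5% GC, the median FPKM had the same order (2.34, 4.35, 5.9 and 7.89). Among 44 histone methylation and acetylation enzymes the median was -0.17 centred and -0.16 after GC subtraction. Of these enzymes 3 were lower and 0 higher, near the 4.82% and 2.61% of all matched genes. They were led by CREBBP, an acetyltransferase, at 4.199 FPKM in DMSO and 2.005 in NCD38 (-0.77), and EZH2, the methyltransferase of H3K27, at 11.2 and 4.14 (-0.65). With 0.1 added, the median of that list was -0.33. Of 20 chaperones of the endoplasmic reticulum 1 was lower, a share near the 4.82% of all matched genes. It was CANX, at 43.0 FPKM in DMSO and 17.2 in NCD38 (-0.89). HSPA5, the main chaperone there, was at 161.9 and 78.2 (-0.44).

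The respiratory chain leaned to the other side of 0. Of 78 expressed subunits of the respiratory chain 54 were above 0 after GC subtraction, with a median of 0.15, against 49.9% of all matched genes. Their median transcript length was 830.5 nt, and with length also subtracted the median ratio was 0.08. At least 1.5-fold, 6 of the 78 were higher and 3 lower, against 2.61% and 4.82%. COX5A, of cytochrome oxidase, was at 325.9 FPKM in DMSO, 392.4 in NCD38, 374.7 in NCD38-β2P4 and 312.2 in NCD38-β2PIPP (0.87, and 0.48 centred). SDHD, of the same list, was the lowest, at 7.66, 2.29, 11.04 and 16.03 FPKM. With 5 added to the FPKM the median of the list was 0.03. The glycolytic enzyme ENO1 was at 1884 FPKM in DMSO and 2513 in NCD38 (0.53) and TPI1 at 1355 and 1830 (0.55), and both were below 1.5-fold after subtraction. In the hypoxia and glycolysis list 1 of 33 was past 1.5-fold higher and 1 lower, HK2, at 13.3 and 6.12 FPKM (-0.66). The 33 lysosome genes had a median of 0.12 (0.02 with length also subtracted), with 0 at least 1.5-fold higher and 2 lower.

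Ribosomal protein genes had members past 1.5-fold in both directions. Of the 80 expressed cytosolic ones, 3 were higher and 12 lower on the centred scale, against 8.04% and 11.1% of all genes. The 79 with a GC content had 7 higher and 6 lower after subtraction, against 2.61% and 4.82%, with a median of 0.04. RPL7 was at 504 FPKM in DMSO, 191.7 in NCD38, 957.4 in NCD38-β2P4 and 1474 in NCD38-β2PIPP (-0.91), and RPS7 at 1404, 610.3, 1081 and 1384 (-0.73). RPS13 was at 2319, 2589, 1759 and 1474 FPKM (0.76). Reads of these genes can also be split with processed copies elsewhere in the genome, so single values are uncertain. Clustered histone genes, whose transcripts lack a poly(A) tail and are near-identical, had 2 of 30 higher and 7 lower after GC subtraction, with a median of -0.12, against 2.61% and 4.82% of all matched genes. On the centred scale the direction was the opposite, with a median of 0.13, 22 of 34 above 0, and 4 higher and 4 lower. The lowest was HIST2H4A at 5.66 FPKM in DMSO and 2.73 in NCD38.

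Cell cycle genes were close to the middle on day 4 after GC subtraction. On the centred scale the medians of the G2/M and S phase lists were -0.08 and -0.18. NCD38 was the lowest of the day 4 libraries for 37 of 50 (74%) and 43 of 55 (78.2%), against 60.2% of all genes. After GC subtraction, 2.61% of all matched genes were at least 1.5-fold higher and 4.82% lower. The day 4 counts below are to be read against these shares. Of 50 expressed G2/M genes, 1 was at least 1.5-fold higher and 3 lower after GC subtraction, with a median of 0.09. The higher one was UBE2C, the ubiquitin-conjugating enzyme that drives exit from mitosis, at 282.5 FPKM in DMSO, 402.9 in NCD38, 309.4 in NCD38-β2P4 and 260.1 in NCD38-β2PIPP (0.85). The lower ones were CKAP5, KIF4A and HJURP, for the spindle and centromere. KIF4A, a mitotic kinesin, was at 9.09, 3.17, 11.5 and 12.7 FPKM (-0.67). On day 30, NCD38 was past 1.5-fold above DMSO for 33 of the 50, against 2.74% of all matched genes, with a median of 0.78. Of 55 S phase genes 0 were higher and 3 lower on day 4, namely UHRF1, RRM1 and CHAF1A (-0.94, -0.92 and -0.72), with a median of 0.08. Of 27 p53 target genes 2 were lower, SESN2 and BBC3, and FDXR, a mitochondrial reductase, was at 26.7 FPKM in DMSO and 41.0 in NCD38 (0.32). Of 25 cholesterol genes, 2 enzymes of the late pathway, MSMO1 and CYP51A1, were lower (-0.96 and -0.83). Interferon response genes had 0 of 24 past 1.5-fold in either direction, with IFITM2, an antiviral membrane protein, at 576.7 FPKM in DMSO and 843.7 in NCD38 (0.50). The other lists are given by their counts past 1.5-fold after subtraction, to be read against 2.61% higher and 4.82% lower of all matched genes. Of 16 YAP targets 1 was higher and 3 were lower, of 45 proteasome subunits 1 and 4, of 264 ZNF zinc finger genes 1 and 6, and of 76 mitochondrial ribosomal proteins 0 and 6. The heat shock (18), mesenchymal (19) and aminoacyl-tRNA synthetase (22) lists had 1 gene on each side. The NRF2 (21) and MHC class I (17) lists had 0 higher and 1 lower, the latter B2M, the light chain of MHC class I, at 299.3 FPKM in DMSO and 139.2 in NCD38 (-0.71). Of 11 epithelial genes and 14 snoRNA host genes 0 passed in either direction.

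The list of long, low-GC centrosome and cilium genes held levels near 0 on day 4. The FPKM of its expressed members summed to 5.64 in DMSO, 3.97 in NCD38, 8.225 in NCD38-β2P4 and 18.5 in NCD38-β2PIPP. In the day 30 libraries the sum of the list was 76.0 to 101.1. Members entered by their mean over the 8 libraries, so those near 0 on day 4 entered through their day 30 values. The difference between the days is therefore partly set by that limit. After GC subtraction 16 of its 17 expressed members were above 0 (median 0.24), yet the FPKM in NCD38 was the lowest of the day 4 libraries for 16 of 17. CEP290 was at 0.0957 FPKM in DMSO and 0.0180 in NCD38. SMC6, at 0.0747 and 0.127, was the 1 exception. The median was 0.31 with 0.1 added to the FPKM and 0.09 with 5 added, and 0 members passed 1.5-fold, so no direction is given for the list.

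The day 30 pair shares no library with the day 4 pair and can be set beside it. Across 10104 genes the Spearman correlation of the GC-subtracted ratios of both days was -0.21, and -0.23 for the centred ratios of the same genes, given as descriptions. Of the 14 protein-coding genes at least 2-fold lower on day 4, 0 were past 1.5-fold in the same direction on day 30 and 1 in the other (MUTED-TXNDC5). Their median on day 30 was 0.06. Of the 8 higher genes, 0 were past 1.5-fold in the same direction and 1 in the other (BSCL2), with a median of -0.24. Of all matched genes, 2.74% passed 1.5-fold upwards on day 30 and 3.04% downwards. The day 4 libraries also stood apart from those of day 30 as a whole: the Spearman correlation of FPKM across expressed genes was 0.949 between NCD38 and DMSO on day 4, and 0.695 to 0.716 between NCD38 on day 4 and the day 30 libraries.

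**Figure D4:**
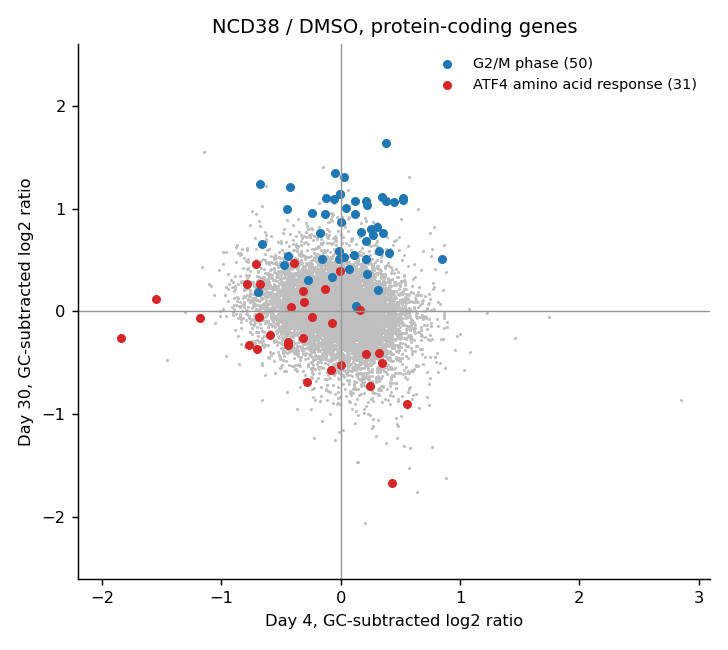
GC-subtracted log2 ratio of NCD38 to DMSO on day 4 (x axis) and day 30 (y axis) for protein-coding genes (grey), with the 50 expressed G2/M genes in blue and the 31 genes of the ATF4 amino acid response in red. The G2/M genes lie around 0 on day 4 (median 0.09) and above 0 on day 30 (median 0.78), and the ATF4 genes reach -1.84 on day 4 (CHAC1).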

How the data were processed

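Total RNA of RKO cells was made into libraries with the TruSeq Stranded mRNA kit. The authors deposited FPKM per gene from Cufflinks in 1 table of 8 columns, with 1 library for each treatment and day. The methods name TopHat as the aligner, whereas the submitters' processing notes list HISAT2 2.2.1.0, BWA 0.5.9 and bedtools 2.20.1 and the build hg19. The RNA annotation was not given in the sources used here.

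Of 25594 entries, 90 had a repeated name and were left out, and a mean of at least 1 FPKM over the 8 columns left 10865. Ratios were log2((NCD38 + 1)/(DMSO + 1)) minus their median. Of these genes, 10104 (93.0%) were matched by symbol (9061) or synonym (1043) to a GENCODE 44 transcript on GRCh37, and the median of 20 equal GC bins was subtracted. Depth came from the value at which single fragments pile up in transcripts of 1000 to 8000 nt, less 200 nt. Counting half-widths (95%) cover counting error only, and none is given under 3 estimated fragments.

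Genes named were the 10 highest and lowest GC-subtracted and 6 highest and lowest centred protein-coding ratios, up to 3 at each end of each of 30 lists, 6 genes of the LSD1 complex and the 3 extremes among other entries. Others were added to complete a count or show members past 1.5-fold. The genes compared and the lists were chosen with earlier results of these data known. Code was tested on simulated data. Python 3.11.15, pandas 2.3.3, numpy 2.4.6 and scipy 1.17.1 were used.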

Additional observations from a re-analysis of the deposited data

Results flagged for a closer look

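Effects of NCD38 on day 4 and day 30 were compared as single values with no replicate, so the differences between the days were not tested. The Spearman correlation of the centred ratio with transcript GC content was 0.59 for the day 4 pair and -0.176 for the day 30 pair. MUTED-TXNDC5, a read-through entry, had a GC-subtracted log2 ratio of -1.143 on day 4 and 1.547 on day 30. BSCL2 had 2.85 on day 4 and -0.857 on day 30. Both entries overlap other entries, and how the fragments were divided between them was not tested.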

How the results depend on the processing

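No paired analysis was possible because each condition on each day was 1 library. With 0.1 in place of 1 added to the FPKM, 209 genes were at least 2-fold higher and 507 lower, and 133 and 166 after GC subtraction. With 5 added, 106 were lower. Lower genes numbered 493 without centring, 599 with equal FPKM sums and 417 with no filter on low FPKM, and 112 with no filter after GC subtraction. A mean FPKM of at least 5 left 76 higher genes and a Spearman correlation with GC content of 0.719. Restricted to protein-coding genes with transcripts of 500 nt or more, with centring and bins set within them, the counts were 26 higher and 81 lower, and 7 and 14 after GC subtraction. Leaving out read-through names as well, a choice made after seeing the data, left 7 and 13. The 30 list medians moved by over 0.1 in 21 of 120 alternatives. The cause of these shifts was not tested. The named genes moved by more than their counting half-width, or by more than 0.1 where none is given, in 72 of 206 cases with 0.1 added and in 53 of 206 with bins of both GC content and length. The sign turned in 6 of 412 values of named genes (EPCAM, NCOR1, SNHG6, CALR, CEP290 and RCOR3), each below 1.5-fold, and in 20 of 120 list medians, each between -0.1 and 0.1.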
